A study of Mus musculus with 6 samples.

Results

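The 150 most abundant long intergenic noncoding RNA (lincRNA) genes were followed in RNA sequenced from 6 mouse aortic samples labelled as smooth muscle cells. Members were the genes with the biotype lincRNA in the deposited table, ranked by mean CPM (the count scaled to a fixed library total) over the 6 libraries. The table held 22956 genes and 994 lincRNA genes. The 3 lincRNA genes that start in a window of chromosome 11 around Mir21a were left out, so that 150 of 991 were taken. Members were thus chosen by their mean CPM, and the ranking is a description. The ranking used all libraries alike and not the contrast between genotypes, which was then tested. A gene near the lower edge of the list could still rank through the genotype in which it was higher.

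All mice were of the strain C57B6, 30 weeks old and fed a western diet, rich in fat and cholesterol, for 20 weeks. The 3 control samples had the genotype WT/mTmG/Myh11ERT2 (WT), and the 3 knockout samples miR-21fl/fl with the same mTmG and Myh11ERT2 alleles. Both groups therefore carried the Cre that is switched on by tamoxifen and driven by the Myh11 promoter, and mTmG, a reporter that changes colour where Cre has acted. That promoter is active in smooth muscle, so miR-21 can be lost there and not in other cells of the vessel. No label says whether replicates are separate animals or pools, so a p-value here reflects spread among 3 libraries a group that could be technical in part. The comparison asks which lincRNAs respond in the aorta when smooth muscle lacks miR-21 on this diet.

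A lincRNA is a transcript longer than a small RNA that encodes no known protein and lies between protein-coding genes. Some lincRNAs stay in the nucleus and build or tune nuclear bodies, some are the precursors from which small nucleolar RNAs (snoRNAs) or microRNAs are cut, and many start back to back with a coding gene and share its promoter region. For most numbered lincRNA genes no function is known. MicroRNAs such as miR-21 bind by their seed to messages in the cytoplasm, and lincRNAs with a matching site can be bound too.

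Library totals ranged from 37787465 to 154384307 estimated counts, with WT 3 and knockout 3 the deepest of their groups. Every member had at least 15.9 estimated counts in every library. The 7 smooth muscle markers summed to between 22920 and 35332 CPM in WT and between 27242 and 35917 CPM in the knockout. The 7 adventitial fibroblast markers reached 6706 CPM in WT 1, 3057 in WT 2 and 5956 in WT 3, then 5362, 1348 and 1863 CPM in knockout 1, 2 and 3. The 6 T and B cell markers summed to at most 0.579 CPM in any library, the 7 macrophage markers to at most 21.9 CPM and the 6 endothelial markers to at most 70.9 CPM, while the 5 cardiac muscle markers in the table reached 40.8 to 74.4 CPM. Of 6 adipocyte markers, 4 (Adipoq, Plin1, Cidec and Lep) were absent from the table and the other 2 summed to between 37.4 and 52.9 CPM in every library. In such bulk samples, fewer cells of a type and less RNA per cell cannot be told apart. Mir21a itself was not analysed here, and the loss of the microRNA could not be checked from these counts.

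A few genes held most of the lincRNA signal. The 150 members took 0.495% of all counts in WT 1, 0.446% in WT 2 and 0.398% in WT 3, against 0.481%, 0.411% and 0.381% for knockout 1, 2 and 3, and the groups overlapped. They held between 95.1% and 95.9% of all counts of lincRNA genes. Malat1 alone took 37.3% of the members' summed mean CPM, the 5 highest genes 71.4% and the 10 highest 81.1%. Only 34 members reached a mean of 10 CPM, and the median member was at 3.11 CPM against 15.1 CPM for the median protein-coding gene of the table. Scaled by length (CPM per kilobase of annotated exon), Malat1 still came first at 232, followed by Gm26917 at 164, Gm26809 at 107 and 2900097C17Rik at 87.4. Neat1 had 9.29 CPM per kilobase over its 20771 bases of exon.

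**Figure D1:**
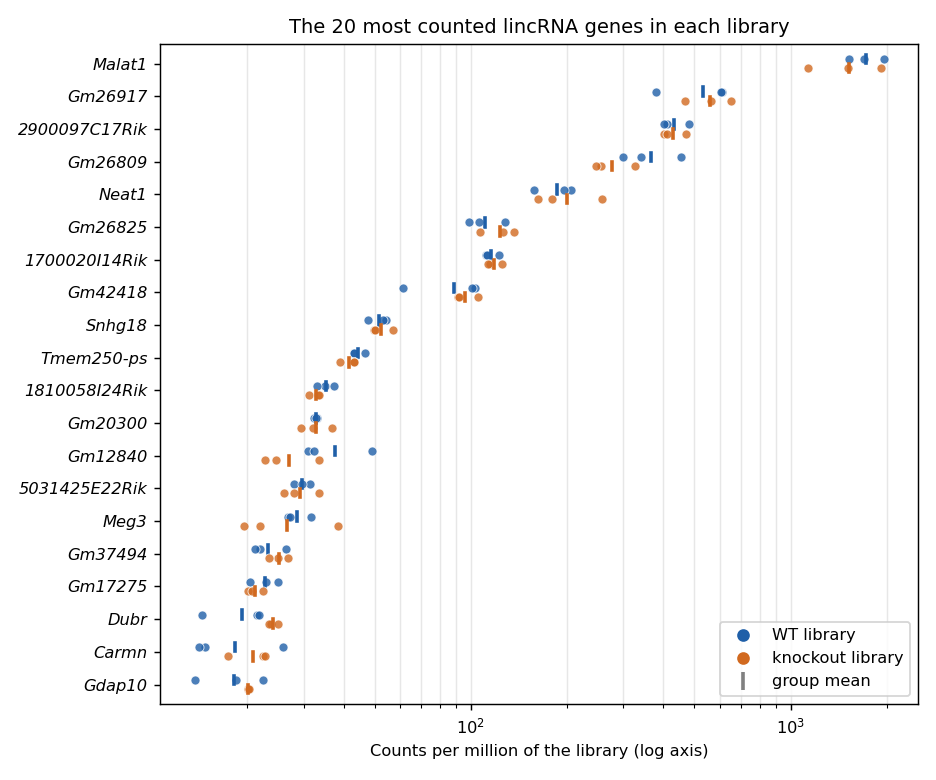
CPM (log axis) of the 20 most counted lincRNA genes, 1 point for each of the 3 WT and 3 knockout libraries, with a bar at each group mean. Levels fall from above 1000 for Malat1 to 19.1 for Gdap10, and the WT and knockout points overlap for every gene shown except Dubr.

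The best known members are RNAs of the nucleus and of genome upkeep. Malat1 (chromosome 19, 5795690 to 5802672, minus strand, mm10), an RNA of the nuclear speckles, read 1959, 1698 and 1521 CPM across the WT libraries, against 1917, 1506 and 1137 CPM across the knockout (libraries are listed in the order 1, 2, 3 throughout). The groups overlapped, with knockout 3 lowest and knockout 1 beside WT 1. The log2 fold change (knockout relative to WT, as everywhere here) was -0.17 ± 0.20 (SE), with a 95% interval from -0.65 to 0.32. Neat1 (chromosome 19, 5824708 to 5845478), the scaffold of paraspeckles, read 206, 196 and 158 CPM across the WT libraries, against 256, 163 and 179 CPM across the knockout. Its highest and second lowest values both belonged to the knockout, and its log2 fold change was 0.11 ± 0.19 (SE; interval -0.34 to 0.57). The gene 2900097C17Rik (chromosome 2, 156388065 to 156392979), the mouse NORAD gene, whose RNA binds Pumilio proteins and keeps chromosomes stable, read 482, 412 and 401 CPM across the WT libraries, against 470, 402 and 411 CPM across the knockout. Here the groups had almost the same values, and the log2 fold change of 0.004 ± 0.11 (SE) had an interval from -0.26 to 0.26. Of 14 genes of paraspeckle proteins, 0 passed edgeR's quasi-likelihood test over all genes (adjusted p under 0.05), 0 had an unadjusted p under 0.05 and 9 had a fold change above 0. Rbm14, a paraspeckle protein needed for their assembly, was nearest, with a log2 fold change of 0.20 ± 0.11 (SE).

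Of the 8 most counted members, 1 overlaps a ribosomal RNA gene and 1 lies beside it. Gm26917 (chromosome 17, 39843013 to 39846341) and Gm42418 (39846958 to 39848788) lie side by side on the plus strand. Gm42418 runs through the span of the rRNA gene CT010467.1 on the other strand, while Gm26917 ends before it and shared no sequence with another gene in the search described below. RefSeq (GRCm38.p6) places an 18S-related pseudogene, Rn18s-rs5, at 39846354 to 39848202 of the same chromosome. Gm26917 read 608, 604 and 379 CPM across the WT libraries, against 649, 564 and 466 CPM across the knockout, and Gm42418 read 103, 101 and 61.5 CPM across the WT libraries, against 105, 91.1 and 91.8 CPM across the knockout. WT 3, the deepest library, was lowest for both, and the groups overlapped. Gm42418 stood at 16.2% to 19.7% of Gm26917 in every library, and CT010467.1 at 4091 to 6881 CPM. Without this pair, the members made up 0.424%, 0.376% and 0.354% of the counts in WT and 0.405%, 0.346% and 0.325% in the knockout.

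Gm26809 (chromosome 6, 18844220 to 18847360) and Gm12840 (chromosome 4, 117700188 to 117700923) showed nearly the same order of libraries although they lie on different chromosomes. Gm26809 read 454, 300.1 and 340 CPM across the WT libraries, against 255, 246 and 327 CPM across the knockout, with WT 1 highest and knockout 3 among the WT values. Gm12840 read 49.1, 30.9 and 32.4 CPM across the WT libraries, against 24.6, 22.8 and 33.5 CPM across the knockout. The whole of the 627-base Gm12840 transcript aligned to Gm26809 at up to 99.2% identity on the opposite strand, and Gm12840 stood at 9.27% to 10.8% of Gm26809 in all 6 libraries. Estimated counts can divide reads between such copies, and the values of the pair may not be separate measurements. Their log2 fold changes were -0.39 ± 0.19 and -0.46 ± 0.23 (SE), with edgeR unadjusted p of 0.0759 and 0.0886 and adjusted p of 0.855 and 0.858.

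Hosts of snoRNAs, transcripts whose introns carry the guide RNAs of ribosomal RNA modification, showed no difference that passed the test, with wide intervals for the rarer ones. Snhg18 (chromosome 15, 32240565 to 32244662) read 54.2, 53.3 and 47.6 CPM across the WT libraries, against 49.6, 50.3 and 57.0 CPM across the knockout, a log2 fold change of 0.03 ± 0.08 (SE; interval -0.15 to 0.22). Snhg12 read 3.16, 4.51 and 4.51 CPM across the WT libraries, against 3.996, 3.23 and 4.55 CPM across the knockout, and the groups overlapped. Snhg6 and Snhg20 had log2 fold changes of 0.05 ± 0.23 and -0.06 ± 0.17 (SE). The spliced RNAs of such hosts are classic targets of nonsense-mediated decay, the pathway that removes transcripts with early stop codons. Of 14 genes of that pathway, 9 had a fold change above 0 and 0 passed the edgeR test over all genes. Smg1, the kinase that starts the decay, read 21.5, 24.9 and 22.5 CPM across the WT libraries, against 28.9, 29.9 and 26.5 CPM across the knockout (log2 fold change 0.32 ± 0.08, SE; edgeR unadjusted p = 0.00472, adjusted p = 0.750). Eif4a3, of the exon junction complex, had -0.14 ± 0.05 (unadjusted p = 0.0266), and Casc3 had 0.18 ± 0.08. Of 14 nuclear exosome and adaptor genes tested, which degrade noncoding RNA in the nucleus, 3 had a fold change above 0, 0 had an unadjusted p under 0.05, and Exosc8, Exosc10 and Exosc4 had log2 fold changes of -0.14, -0.12 and -0.08.

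Meg3 (chromosome 12, 109541001 to 109571726), expressed from the maternal chromosome and host to microRNAs, was the only member from the list of imprinted RNAs. It read 31.7, 26.8 and 27.2 CPM across the WT libraries, against 38.4, 19.6 and 22.0 CPM across the knockout. The knockout held both the highest and the lowest value, and the log2 fold change was -0.08 ± 0.26 (SE; interval -0.71 to 0.55). The fibroblast markers given above were likewise low in knockout 2 and 3 and high in knockout 1, and their part in this spread was not tested. Gm27000 on the X chromosome, whose 842-base transcript aligned in full to Meg3 with 100% identity, stood at 6.64% to 11.7% of Meg3 in the 6 libraries. Of 14 imprinted coding genes tested, 7 had a fold change above 0 and 0 passed the edgeR test over all genes. Peg3, an imprinted zinc finger gene, had a log2 fold change of 0.25 ± 0.06 (SE; unadjusted p = 0.00589), Ndn, which encodes necdin, -0.28 ± 0.11 (0.0383), and the growth factor gene Igf2 0.34 ± 0.29 (0.277).

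Of the members, 7 contain a microRNA on their own strand, 25 mature forms in all (a copy of miR-1906 in Gm27000 included) with 22 different seeds. The richest was Mir17hg (chromosome 14, 115042879 to 115046727), the primary transcript of the miR-17 to miR-92 cluster, which drives growth and is induced by Myc. Its best known arms are shown from RefSeq (GRCm38.p6), 5′ to 3′, with the seed (bases 2 to 8) in capitals, because the seeds divide the cluster into families, miR-17 with miR-20a and miR-19a with miR-19b.
miR-17-5p: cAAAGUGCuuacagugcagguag
miR-20a-5p: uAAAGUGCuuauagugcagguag
miR-18a-5p: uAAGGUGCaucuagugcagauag
miR-19a-3p: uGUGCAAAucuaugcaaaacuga
miR-19b-3p: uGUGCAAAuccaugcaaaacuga
miR-92a-3p: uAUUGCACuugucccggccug
The host read 2.82, 1.75 and 2.57 CPM across the WT libraries, against 3.41, 3.91 and 2.02 CPM across the knockout. Knockout 1 and 2 lay above WT and knockout 3 inside it, with a log2 fold change of 0.39 ± 0.30 (SE; interval -0.33 to 1.11). It was 0.63 when knockout 3 was left out, 0.20 when knockout 2 was, and 0.09 under limma-voom. Levels of the host say nothing of the mature microRNAs, which were not analysed here.

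Carmn (chromosome 18, 61649625 to 61665537), the smooth muscle lincRNA that lies beside the miR-143 and miR-145 genes and supports the contractile state, read 14.7, 25.9 and 14.2 CPM across the WT libraries, against 22.5, 17.5 and 22.7 CPM across the knockout. WT 2 was the highest of all libraries and the other WT libraries the lowest, so the groups overlapped. The log2 fold change was 0.22 ± 0.25 (SE; interval -0.37 to 0.81), and it was 0.54 without WT 2, 0.10 without WT 1 and 0.06 without WT 3. The smooth muscle markers reached 22920 CPM in WT 1, 35332 in WT 2 and 28877 in WT 3, against 27242, 35917 and 33717 CPM for knockout 1, 2 and 3, with WT 1 lowest for the markers and WT 3 lowest for Carmn. Their part in the values of Carmn was not tested. Ftx (chromosome X, 103560907 to 103623754), which lies in the X-inactivation centre and contains miR-421 and miR-374b in an intron, read 3.13, 3.91 and 3.12 CPM across the WT libraries, against 3.39, 4.19 and 3.47 CPM across the knockout, with a log2 fold change of 0.14 ± 0.17 (SE). The gene 4833445I07Rik, whose exons hold miR-191 and miR-425, was at -0.003 ± 0.16.

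Stress-linked and steady members completed the named set. Pvt1 (chromosome 15, 62037986 to 62378096), the neighbour of Myc, read 6.47, 5.73 and 6.53 CPM across the WT libraries, against 5.40, 4.67 and 5.76 CPM across the knockout. All but the highest knockout value lay under WT, and the log2 fold change was -0.23 ± 0.14 (SE; unadjusted p = 0.141). Lncpint, a p53-induced RNA, had a log2 fold change of -0.02 ± 0.23. Of the 12 highest members, those with the smallest spread within groups were 1810058I24Rik, for which RefSeq lists the synonyms Mm47 and Stmp1, names of a mitochondrial micropeptide, with means of 35.2 ± 2.17 CPM (WT) against 32.7 ± 1.25 CPM (knockout; SD over 3 libraries each), and Tmem250-ps at 44.4 ± 1.90 and 41.8 ± 2.41 CPM. Gm20300 was at 32.8 ± 0.374 and 32.8 ± 3.65 CPM, and 1700020I14Rik at 115 ± 5.91 and 118 ± 6.49 CPM. For these 4 genes the log2 fold changes lay between -0.09 and 0.05. The interval ran from -0.24 to 0.07 for 1810058I24Rik and from -0.19 to 0.23 for Gm20300.

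Across all 150 members no difference between the genotypes passed the test. In edgeR's quasi-likelihood test, fitted on 16654 genes, 0 members had a Benjamini-Hochberg adjusted p under 0.05, as did 0% of all genes tested, and the smallest adjusted p of a member was 0.741. At an unadjusted p under 0.05, 7 members were higher in the knockout (4.67%, against 3.95% of all genes) and 1 was lower (0.667%, against 2.01%). DESeq2's Wald test called 0 members at an adjusted p under 0.05, against 0.374% of all genes higher and 0.0735% lower, and had 8 members higher (background 3.89%) and 3 lower (background 2.14%) at an unadjusted p under 0.05. In 12 members the lowest knockout library exceeded the highest WT library (8%, against 5.25% of all genes), and in 4 the reverse held (2.67%, against 7.15%). Fold changes above 0 were found in 79 members (52.7%, against 49.4% of all genes). The median log2 fold change of members was 0.02, against -0.002 over all genes, with quartiles at -0.11 and 0.18 and extremes at -0.96 and 1.27. Both extremes, Gm44751 and Gm26751, belong to members that ranked only through the group in which they were higher. The shares stand beside their background as a description, and no list test was made. The counts at an unadjusted p under 0.05 moved with single libraries: without knockout 3 there were 3 higher and 5 lower, and the lower count was 3 without knockout 1, 0 without knockout 2, 4 without WT 2 and 2 without WT 3. In limma-voom with sample weights 14 were higher and 4 lower. Shares over all genes are not given here for limma-voom or for leaving out a library. A shift in these counts can therefore not be told apart from a shift over all genes.

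Intervals were wide for the rarer members. The median half-width of the 95% interval of a log2 fold change was 0.50 over members and 0.28 over the 34 members at 10 CPM or more. For 22 of those 34 (64.7%) the whole interval lay within a 1.5-fold change to either side, against 87.4% of protein-coding genes at 10 CPM or more. For members at 1 to 10 CPM it did so in 30 of 116 (25.9%, against 40.2%). The median spread between libraries of a group (SD of log2 CPM) was 0.16 for members and 0.11 for coding genes at 10 CPM or more, and 0.28 and 0.25 at 1 to 10 CPM. Within these ranges members and coding genes were not matched for level, so these differences cannot be told apart from differences in level.

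**Figure D2:**
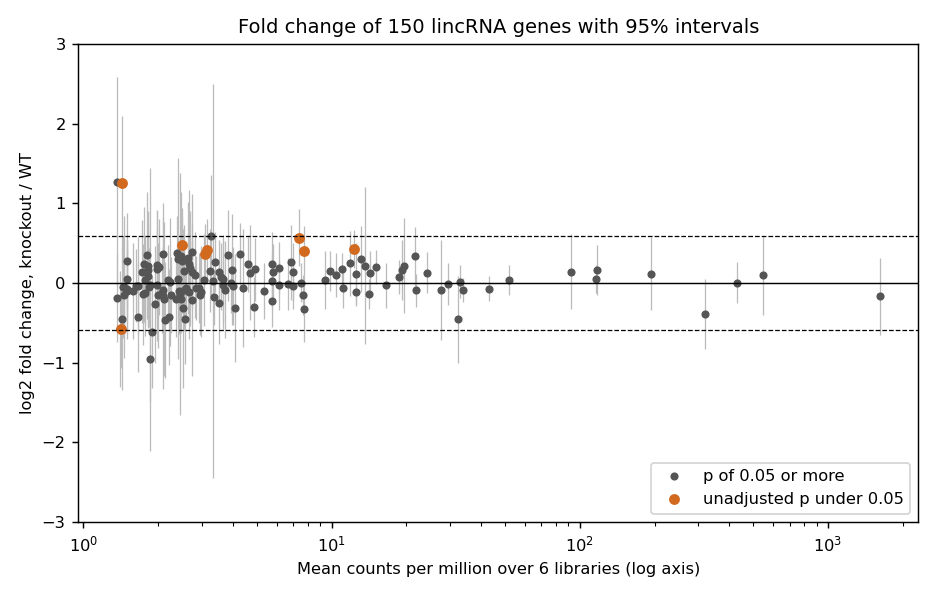
Log2 fold change, knockout over WT, against mean CPM (log axis) for the 150 lincRNA genes, with 95% intervals from the edgeR fit and dashed lines at a 1.5-fold change. The 8 genes at an unadjusted p under 0.05 are orange, of which 7 lie above 0, and intervals narrow as the level rises.

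The 7 members on the higher side are little studied, and most sit close to or within a coding gene. None passed the adjusted threshold. Gm16576 (chromosome 15, 79742698 to 79757394), which starts 162 bases from Sun2, a nuclear envelope gene, and runs the other way, read 11.4, 9.99 and 10.4 CPM across the WT libraries, against 12.8, 14.6 and 14.9 CPM across the knockout. Every knockout library lay above every WT library. Its log2 fold change was 0.43 ± 0.10 (SE; edgeR unadjusted p = 0.0036, adjusted p = 0.741), while Sun2 read 57.3, 52.6 and 68.1 CPM across the WT libraries, against 57.7, 89.5 and 71.9 CPM across the knockout (0.31 ± 0.17). Gm16907 (chromosome 13, 63289601 to 63297147) lies within the coding gene 2010111I01Rik on the other strand. It read 5.61, 7.19 and 5.30 CPM across the WT libraries, against 9.37, 7.76 and 9.28 CPM across the knockout, again without overlap (0.57 ± 0.15; unadjusted p = 0.0071), and 2010111I01Rik had 0.20 ± 0.15. The largest change of the 7 was that of 2610035D17Rik (chromosome 11, 113043895 to 113201838), at 1.16, 0.601 and 0.810 CPM in WT and at 2.38, 1.26 and 2.38 CPM in the knockout. Knockout 2 lay just above WT 1, and the log2 fold change was 1.25 ± 0.36 (unadjusted p = 0.0103), between 1.05 and 1.51 over the alternatives. All its WT values lay under 1.36 CPM, the mean of the last member, so it ranked only through the knockout.

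Gm26802 (chromosome 7, 19298260 to 19300770) begins 1926 bases past the end of Fosb on the same strand. It read 2.08, 2.03 and 2.19 CPM across the WT libraries, against 2.83, 2.88 and 2.97 CPM across the knockout, the narrowest spread of the 7 (0.48 ± 0.15; unadjusted p = 0.0172). Fosb, an immediate early transcription factor gene induced by stress and growth signals, read 383, 484.5 and 720 CPM across the WT libraries, against 558, 909 and 699.5 CPM across the knockout, with overlapping groups (0.46 ± 0.27). Gm26669 (chromosome 12, 80108034 to 80113000) lies opposite Zfp36l1, a gene for a protein that destabilises messages, and 92.5% of its exon bases fall within coding exons. It read 2.35, 2.78 and 3.00 CPM across the WT libraries, against 3.40, 3.49 and 3.86 CPM across the knockout (0.42 ± 0.16; unadjusted p = 0.0387). Zfp36l1 itself read 149, 160.2 and 174.5 CPM across the WT libraries, against 180.1, 202 and 199.6 CPM across the knockout (0.28 ± 0.08; unadjusted p = 0.0120). Both genes of the pair had every knockout library above every WT library, and neither passed the adjusted threshold. The gene 5033430I15Rik (chromosome 13, 45965253 to 45966508), 245 bases from the start of Atxn1, the ataxin gene, read 2.53, 2.95 and 2.63 CPM across the WT libraries, against 3.73, 3.18 and 3.45 CPM across the knockout (0.37 ± 0.16; unadjusted p = 0.04996). Atxn1 had 0.23 ± 0.08 (unadjusted p = 0.0243). Gm26532 (chromosome 8, 84208920 to 84209609) read 5.84, 7.41 and 6.85 CPM across the WT libraries, against 8.63, 7.87 and 9.64 CPM across the knockout (0.40 ± 0.13; unadjusted p = 0.0202). Gm26751 came next by p, with a log2 fold change of 1.27 ± 0.55 and an unadjusted p of 0.0569. Of its WT values only that of WT 3 (1.39 CPM) lay above the last member's mean of 1.36 CPM. Like 2610035D17Rik, it ranked only through the knockout.

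**Figure D3:**
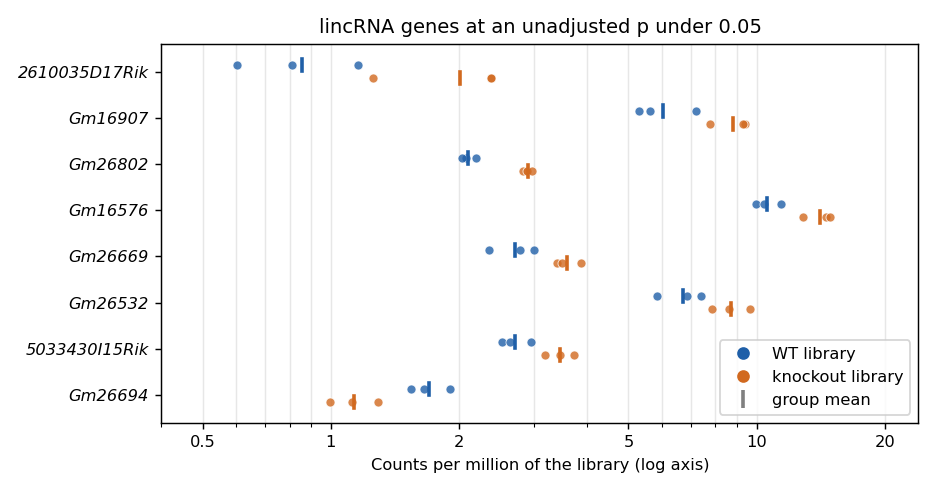
CPM (log axis) of the 8 lincRNA genes at an unadjusted p under 0.05, 1 point for each of the 3 WT and 3 knockout libraries, with a bar at each group mean. The WT and knockout points do not overlap for any of the 8, and 2610035D17Rik shows the widest gap between means (0.856 and 2.01 CPM).

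On the lower side, Gm26694 (chromosome 17, 25794894 to 25964784) was the 1 member at an unadjusted p under 0.05. It read 1.55, 1.90 and 1.65 CPM across the WT libraries, against 1.12, 0.993 and 1.29 CPM across the knockout, without overlap (-0.57 ± 0.21; unadjusted p = 0.0295, adjusted p = 0.830). All its knockout values lay under 1.36 CPM, the mean of the last member, so it ranked only through WT. Of its exon bases, 96.7% lie in exons of coding genes on the other strand, among them Metrn, a secreted growth factor gene with a log2 fold change of -0.27 ± 0.11 (SE), and Capn15, a protease gene with 0.24 ± 0.09. Beside Gm26809 and Gm12840, the other members with the smallest p on this side were Gm26582 (-0.61 ± 0.30), Gm44751 (-0.96 ± 0.48), 9430037G07Rik (-0.45 ± 0.24), AC124392.1 (-0.30 ± 0.16) and Gm26860 (-0.58 ± 0.31), with unadjusted p from 0.0794 to 0.106. Gm44751 read 3.79, 1.53 and 2.12 CPM across the WT libraries, against 0.873, 0.801 and 2.05 CPM across the knockout, so knockout 3 fell among WT. Its knockout mean lay under 1.36 CPM as well, so it too ranked only through WT. Gm26860, at rank 148 just above that edge and lower in the knockout, likewise ranked through WT. AC124392.1 overlaps Gas1, which restrains growth and whose own value was -0.23.

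Sequence shared with other genes was common under the lincRNA name. The longest annotated transcript of 149 members was aligned to all transcripts of GENCODE M21 (at least 95% identity over at least 100 bases). A base counted as shared if it matched any other gene, so the share can be spread over several genes. At least 50% of the transcript was shared in 34 members, at least 90% in 20, and 63 shared none. These 34, among them 2900097C17Rik (51.6% shared, with Gm7292) and Gm26809 (80.7%), held 26.4% of the members' summed mean CPM. Of that sum, 2900097C17Rik and Gm26809 gave 430 and 320 CPM, while Gm7292 stood at 2.99 CPM and AC160336.1 at 6.16 CPM. For 16 of the 34 the gene of the table sharing most sequence overlaps on the opposite strand, for 17 it lies elsewhere and for 1, C030014I23Rik, the search named none. The member AC122428.2 overlaps C030014I23Rik on the opposite strand and shares 98.6% of its own transcript with it. Strand use in the counting is not given in the sources used here, so reads of overlapping genes cannot be told apart, and reads of copies are divided by estimation. Gm26776 stood at 0.9985% to 1.31% of Ccdc3, the coding gene opposite it, in the 6 libraries, and Gm26669 at 1.57% to 1.93% of Zfp36l1. Of the copies elsewhere, Gm26825 stood at 14.7% to 16.1% of the chaperone gene Hspa8, Gm26526 at 3.78% to 4.67% of the ubiquitin-conjugating gene Ube2h, and Gm10076 at 13.6% to 16.3% of the ribosomal protein gene Rpl41. Other pairs on opposite strands varied more between libraries. Gm26899 stood at 0.819% to 1.53% of Zfp106 and Gm26694 at 11.6% to 16.5% of Metrn, and Gm26751, opposite Nynrin, went from 0.971% in WT 1 to 6.82% in knockout 3.

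Of 32 members for which the search named a partner that was tested, 23 had a fold change of the same sign as the partner. Some of these pairs are members of each other's families, and all share libraries. In some pairs the partner alone covered under 50% of the transcript, such as 11.5% for Gm26885 with Pim1 and 39.5% for Gm26809 with AC160336.1. In others it covered up to 100%, as for Gm12840 with Gm26809. The 34 members had a median log2 fold change of -0.02 and the remaining 116 one of 0.04. Of the 7 members higher at an unadjusted p under 0.05 in edgeR, 6 belonged to the 116 and 1 to the 34. The 1 lower member, Gm26694, belonged to the 34. Over all genes tested 3.95% were higher and 2.01% lower, and counts this small do not separate the sets.

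**Figure D4:**
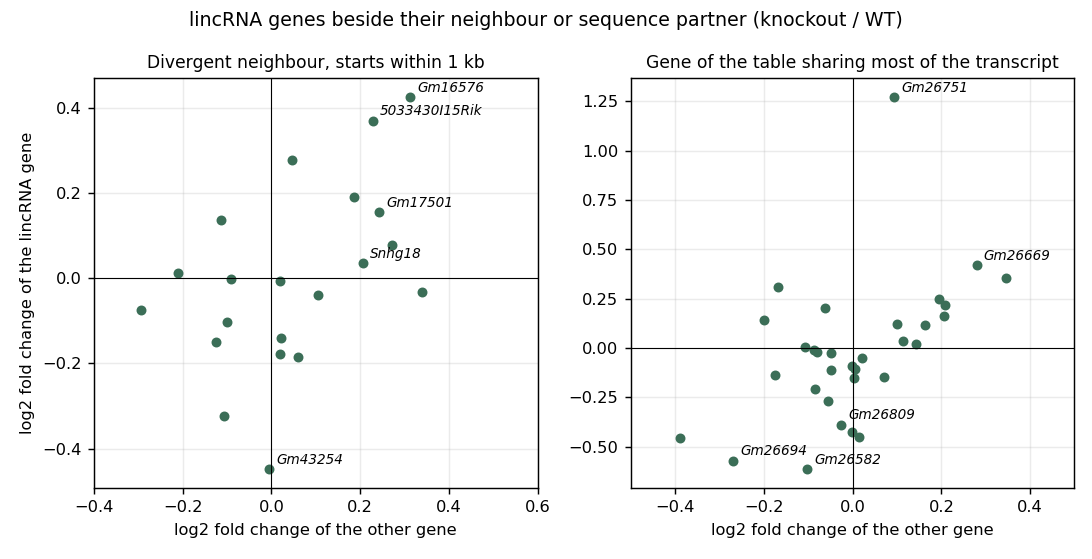
Log2 fold change (knockout over WT) of a lincRNA gene against that of a second gene, for the 21 that start within 1 kb of a divergent coding neighbour (left) and the 32 whose transcript is at least 50% shared with other genes and whose closest partner was named by the search and tested (right). Same-sign pairs number 13 of 21 on the left and 23 of 32 on the right, and Gm26751 stands apart at 1.27.

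Position beside coding genes was described in the same way. The nearest coding gene overlapped the span of 39 members, and 21 members start within 1 kb of a divergent coding gene. Across those 21, fold changes of member and neighbour had a Pearson correlation of 0.48 and a Spearman correlation of 0.49, a description over genes measured in the same 6 libraries. Over all 150 members these values were 0.20 and 0.28. They were 0.16 and 0.19 over the 21 convergent members, 0.31 and 0.40 over the 39 overlapping members, 0.05 and -0.01 over 54 members whose nearest coding gene lies on the same strand, and -0.07 and -0.24 over 19 members more than 100 kb from one. Gm16576 with Sun2 and 5033430I15Rik with Atxn1, given above, are among the 21. Snhg18 was at 0.03 beside its divergent neighbour Sema5a, a semaphorin of axon guidance, which read 112.7, 118.1 and 109.2 CPM across the WT libraries, against 135, 126 and 127 CPM across the knockout (0.21 ± 0.06; unadjusted p = 0.0115). Gm17501 was at 0.16 ± 0.11 beside the growth regulator gene Cyr61 at 0.24.

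Matches to the miR-21 seed were few. The mature microRNA is shown from RefSeq (GRCm38.p6) with its seed in capitals, beside sites of members, 5′ to 3′ from GENCODE M21 transcripts, with the matching bases in capitals. Sites are given for the 3 most counted members with one, for all 6 members with the longer match, and for Gm26669, the one member with a site at an unadjusted p under 0.05.
miR-21a-5p: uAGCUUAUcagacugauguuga
2900097C17Rik: tagatctggtgATAAGCTtaggaatgcta
1700020I14Rik, first site: aagtgaatgtgATAAGCTtgtggccagtg
1700020I14Rik, second site: aagcatgttgaATAAGCTgctgttatcag
Gm42418: aagtgcgggccATAAGCTtgcgttgatta
Gm37494: tgaactgtctaATAAGCTAgccaagcatg
Gm26617: aggaaagagaaATAAGCTAgacaaaaaaa
AC160336.1, the same at 2 places: ctctggatggcATAAGCTAgccagccatg
5930430L01Rik: ggcaacaagaaATAAGCTAcagggctgga
AI839979: acaggcagattATAAGCTAtgtccttagg
Dancr: tggtagctattATAAGCTActctgtaaac
Gm26669: tgataagttaaATAAGCTtttttatattg
The motif ATAAGCT was searched on the transcript strand alone in the longest transcript of 149 members, and ATAAGCTA, which contains it, counts under both. Of the members, 20 (13.4%) held ATAAGCT and 6 (4.03%) ATAAGCTA, against 8.37% and 1.20% of 836 other lincRNA genes, whose transcripts are shorter (median 1622.5 bases, against 2312). In windows of 1000 bases, 5.41% of 425 windows of members and 4.26% of 1151 windows of the others held the motif. The 93147-base transcript of AC160336.1 alone held 7 of the members' 28 sites, and the share of windows without it is not given here. The 20 members with a match had a median log2 fold change of 0.06 (13 above 0), the 129 without 0.01 (66 above 0) and the 6 with the longer match 0.003 (3 above 0). Of the members shown, 2900097C17Rik was at 0.004, 1700020I14Rik at 0.05, Gm42418 at 0.14, Gm37494 at 0.13, Gm26617 at 0.20, AC160336.1 at -0.03, 5930430L01Rik at 0.03, AI839979 at -0.15, Dancr at -0.20 and Gm26669 at 0.42, with standard errors from 0.07 to 0.28. A match says only that these letters are present.

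Members with the widest spread within groups differed most between libraries of 1 genotype. Gm42031 read 0.826, 1.80 and 7.25 CPM across the WT libraries, against 1.63, 0.995 and 7.47 CPM across the knockout, high in WT 3 and knockout 3. Gm4316 read 1.42, 1.82 and 4.46 CPM across the WT libraries, against 1.75, 1.03 and 4.19 CPM across the knockout, with the same libraries high. These are the deepest libraries of their groups, and of these transcripts 97.4% and 57.5% are shared with other genes; the part of either was not tested. Gm26751 was also highest in WT 3 (1.39 CPM) and knockout 3 (3.13 CPM) of their groups. Gm28592 and AC122428.2 completed the set, with log2 fold changes of 0.31 ± 0.53 and -0.02 ± 0.61 (SE). The highest value of a member fell in WT 2 for 37 members and in WT 3 for 8, and the lowest in knockout 2 for 36 and in WT 2 for 15.

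At the edge of the list, Gm26751 (1.37 CPM) and Gm15706 (1.36 CPM) were the last members, and D830026I12Rik (1.36 CPM) and Gm44421 (1.33 CPM) the first genes left out. Of the 3 lincRNA genes left out for their place near Mir21a, 1 was abundant enough to rank, C030037D09Rik (chromosome 11, 88718645 to 88728893). It read 1.21, 1.88 and 1.85 CPM across the WT libraries, against 3.26, 3.27 and 2.28 CPM across the knockout, without overlap (log2 fold change 0.84 ± 0.25, SE; edgeR adjusted p = 0.780).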

How the data were processed

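Estimated counts for each gene in 6 libraries, as the authors deposited them, were not normalized. The submitters' processing notes name mm10, STAR 2.6 and DESeq2 without roles. Which program and gene models did the counting is not given in the sources used here. Of the deposited expected counts, 43.6% to 54.3% in a library were exactly whole, zeros included, and all were rounded for count tests. Deposited end coordinates lie 1 base past those of GENCODE M21 (GRCm38), and were lowered by 1. By position 140 members matched, 9 by symbol and 1 not at all. Some matched members have another type in GENCODE M21, such as bidirectional promoter lncRNA for Gm16576, antisense for Gm17552 and processed transcript for Dancr. Columns were assigned by sample code, leaving 0 columns without a sample.

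CPM are scaled to library totals. Genes passing edgeR's filterByExpr (16654, all 150 members among them) were scaled by TMM (factors 0.987 to 1.02) and compared by edgeR's quasi-likelihood F test (edgeR 4.0.16, robust, two-sided, under R 4.3.3), adjusted by Benjamini-Hochberg over all of them at a threshold of 0.05. Alternatives used DESeq2 1.42.0, limma 3.58.1, other scalings, filters and member lists, a replicate block and leaving out each library. On simulated counts for knockout against WT (16654 genes), the test recovered 35.8% of the 1.5-fold changes (67 genes), 77.6% of the 2-fold ones (67) and 90.9% of the 4-fold ones (66), and made 8 false calls. The changed genes were drawn from genes of the whole table and not from members alone. The median SE was 0.21 over members and 0.14 over all genes tested, so these shares may overstate recovery among members. Alignments used blastn 2.17.0, and Python 3.11.15 with pandas 2.3.3 made the tables, matplotlib 3.10.9 the figures.

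Named members were the 12 highest, the 8 with the smallest p in each direction, the 5 with the largest spread, those in role lists and those at the edge of the list, and from each list of other genes the 3 with the smallest p. Those named for a neighbour, a partner, a microRNA or a site were chosen after their values were seen. The members and lists were chosen with earlier results of these data known.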

Additional observations from a re-analysis of the deposited data

How the results depend on the processing

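With edgeR, DESeq2 or limma-voom, 0 members passed the adjusted threshold under all 13 settings that refit the data, and the lowest adjusted p of a named member was 0.093. The count of members higher in the knockout at an unadjusted p under 0.05 was 14 with limma-voom sample weights and 4 in the top 75, and ranged from 3 to 9 on leaving out a library. The count lower was 3 with DESeq2 and 4 with limma-voom, and ranged from 0 to 5 on leaving out a library. It was 0 in the top 75, 0 without members that overlap a coding gene and 0 without members at least 50% shared (chosen after seeing the data). The 1 lower member of the main fit, Gm26694, ranks 147, overlaps a coding gene and is 96.2% shared. These subsets with 0 lower all leave it out. In the main fit 3.95% of all genes were higher and 2.01% lower. The median log2 fold change was 0.0714 with limma-voom and 0.0762 in the top 75, and ranged from -0.001 to 0.05 on leaving out a library. Shares over all genes are not given here for the limma-voom and leave-one-out counts, nor for the replicate block below. Shifts in those counts cannot be told apart from shifts over all genes. The cause of these shifts was not tested beyond the smaller number of genes or libraries.

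Among 41 named members, 24 kept their sign throughout. On leaving out 1 library, the log2 fold changes whose sign changed ran from -0.379 to 0.00568 for Malat1, -0.0956 to 0.213 for Gm26917, -0.0798 to 0.0975 for 2900097C17Rik, -0.118 to 0.245 for Neat1, -0.00914 to 0.0954 for 1700020I14Rik, -0.0644 to 0.271 for Gm42418, -0.031 to 0.0761 for Snhg18, -0.0711 to 0.0792 for Gm20300, -0.451 to 0.0974 for Meg3, -0.176 to 0.0931 for Snhg12, -0.178 to 0.214 for Lncpint, -1.36 to 1.39 for Gm42031, -0.141 to 0.0163 for Snhg20, -0.895 to 0.56 for Gm4316, -0.0483 to 0.682 for Gm28592, -0.11 to 0.191 for Snhg6 and -0.318 to 0.442 for AC122428.2. With limma-voom the sign changed for 2900097C17Rik (-0.00139), Lncpint (0.20), Gm42031 (-0.26) and AC122428.2 (0.19), and with upper-quartile factors for 2900097C17Rik (-0.0089). The cause was not tested.

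With the replicate number as a block, 0 members were called, 10 were higher and 1 lower at an unadjusted p under 0.05, the median was 0.02, and Lncpint changed sign (0.00236). Deviations of each library from its group mean of log2 CPM were correlated between the groups over the genes tested. For same-numbered libraries these correlations were 0.289, 0.317 and -0.026. Thus 1 pair stayed under 0.1 and the numbers were not taken as pairs. The values are tied together, since deviations within a group cancel out. By these deviations, libraries 1 and 2 of each group correlated best with their own number, WT 3 with knockout 1 and knockout 3 with WT 2, a hint from the data and not from the design. Depth limits the rarer members, the lowest of which had 15.9 estimated counts in 1 library.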
